A study of Mus musculus with 8 samples.

Results

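The 10 genes described here encode the corticosteroid receptors, an enzyme that makes their hormone active inside cells, and well-known hormone-induced genes. They were taken by gene symbol from the count table, in which all 10 of 10 were found among 46078 entries, and all 10 were among the 15859 genes with enough counts to be tested. The receptors are Nr3c1 (glucocorticoid receptor) and Nr3c2 (mineralocorticoid receptor), the enzyme is Hsd11b1, and the induced genes are Fkbp5, Sgk1, Tsc22d3, Zbtb16, Klf9, Pdk4 and Errfi1. RNA-seq counts came from the hippocampus of C57BL/6J mice, 9 weeks old, in 4 libraries of wild-type animals (WT) and 4 of animals carrying Tg(Camk2a-cre)2Gsc as Cre+/- (Cre, the CamiCre line). In that line Camk2a regulatory DNA drives Cre recombinase in forebrain excitatory neurons, and the labels name no floxed allele and no treatment in either group. The labels number the libraries without saying that each came from its own animal, so every p-value measures the spread between these libraries.

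Corticosterone, the main glucocorticoid of mice, enters cells and binds receptors held in the cytoplasm by heat shock protein chaperones. The bound receptor moves to the nucleus and switches on genes through glucocorticoid response elements, palindromic DNA sites that both receptors recognise. The hippocampus is known for holding both receptors in its neurons: Nr3c2 binds the hormone with high affinity and is largely occupied at rest, while Nr3c1 is filled at the daily peak and under stress. Target genes such as Fkbp5 and Tsc22d3 are therefore widely used as readouts of receptor activity in brain tissue.

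The upstream DNA of 3 target genes is shown, the same 3 whose closest genes are given further on. The WT order described further on, replicate 1 lowest and replicate 4 highest, was found in all 7 target genes. Its relation to these sequences was not tested. Each line gives the 250 bases before an annotated transcript start on GRCm38.p6, from RefSeq, written 5′ to 3′ on the strand of the gene. Capitals mark the 15-letter response element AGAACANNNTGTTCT in Sgk1 and a lone 6-letter arm of it in Tsc22d3. A further arm in the Sgk1 stretch, 242 to 237 bases before the start, is left in lower case. The Fkbp5 stretch, the only window of that gene, holds neither. The Sgk1 and Tsc22d3 stretches were chosen for their matches among 6 and 3 windows of these genes.
Sgk1, chr10:21993640-21993889, plus strand: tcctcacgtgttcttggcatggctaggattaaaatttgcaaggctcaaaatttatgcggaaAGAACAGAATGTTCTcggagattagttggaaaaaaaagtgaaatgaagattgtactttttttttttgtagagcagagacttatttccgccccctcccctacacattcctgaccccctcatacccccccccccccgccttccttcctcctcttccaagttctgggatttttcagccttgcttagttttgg
Tsc22d3, chrX:140600523-140600772, minus strand: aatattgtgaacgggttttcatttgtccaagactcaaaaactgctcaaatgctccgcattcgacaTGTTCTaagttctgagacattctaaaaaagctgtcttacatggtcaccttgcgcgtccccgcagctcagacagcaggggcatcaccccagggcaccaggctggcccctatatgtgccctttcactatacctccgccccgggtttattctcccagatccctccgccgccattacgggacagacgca
Fkbp5, chr17:28486150-28486399, minus strand: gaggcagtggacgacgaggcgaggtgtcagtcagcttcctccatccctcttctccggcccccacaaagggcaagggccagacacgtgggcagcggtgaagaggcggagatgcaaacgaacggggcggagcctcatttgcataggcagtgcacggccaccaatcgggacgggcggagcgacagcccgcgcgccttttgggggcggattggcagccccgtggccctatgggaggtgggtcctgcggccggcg

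The palindrome in Sgk1, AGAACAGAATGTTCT, lay 189 to 175 bases before that transcript start, at 21993701 to 21993715 on chromosome 10. Windows from 250 bases before to 50 after a start were searched for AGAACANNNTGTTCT, which reads alike on both strands. Only 3 of 32851 windows (0.00913%) held it, and that of Sgk1 was 1 of the 3. The single arm AGAACA, or TGTTCT on the opposite strand, was in 19.0% of windows, and the palindrome contains both arms. Windows were present for 8 members, all but Nr3c1 and Zbtb16. Of their 16 windows, 4 held an arm, 3 of Sgk1 and 1 of Tsc22d3. A match describes letters and not a bound site, and elements of these genes can lie outside such windows.

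The libraries held 21339996 to 27826871 counts. Levels are given as CPM, counts relative to library size after scaling by the trimmed mean of M values (TMM). Defining markers of hippocampal neurons were present in all 8 libraries, with summed levels of 255 to 377 CPM for 6 dentate granule markers and 632 to 791 CPM for 6 CA1 markers. WT replicate 1 stood apart by choroid plexus RNA, with a summed level of 1004 CPM over 8 markers against 25.4 to 37.4 CPM in the other 7 libraries; 3 of the 8, Folr1, Kcnj13 and Otx2, were at 0 in at least 1 library. Fold changes, spreads and likeness are therefore also given without it where it moved them. Summed microglia and astrocyte markers were higher in the Cre group: 8 microglia markers gave 302 to 319 CPM in WT and 326 to 338 CPM in Cre apart from Cre replicate 1 at 434 CPM, and 8 astrocyte markers 4977 to 5355 and 5368 to 6014 CPM. The groups overlapped for 8 oligodendrocyte markers, at 4021 to 4472 and 4043 to 5184 CPM. In each of these lists 8 of 8 markers had a log2 fold change above 0, beside 50.2% of all genes. Taken singly, the groups did not overlap for 3 microglia, 2 astrocyte and 0 oligodendrocyte markers, beside 2.31% of all genes. The differences between the sums were not tested. The part of glial RNA in the results below was not tested. In whole-tissue RNA, a change in the number of cells of a type and a change in RNA per cell cannot be told apart.

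Of the 10 members, 0 differed between Cre and WT hippocampus after Benjamini-Hochberg adjustment over all genes (edgeR, quasi-likelihood F-test; adjusted p = 0.999 for each member). The same threshold called 0.0315% of all genes tested, 0.0252% as higher in Cre and 0.00631% as lower. At an unadjusted p under 0.05 there were also 0 members, against 3.5% of all genes, and DESeq2 and limma voom also called 0 members after adjustment. In 0 members did the groups fail to overlap, against 2.31% of all genes. Log2 fold changes (Cre over WT) ran from -0.09 for Hsd11b1 to 0.15 for Sgk1. Their median was 0.005, beside 0.00036 over all genes tested, and 5 lay above 0, where 50.2% of all genes did. Without WT replicate 1, 2 lay above 0, beside 50.4% of all genes, and the median was -0.03.

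Nr3c1 lies on chromosome 18 (39410545 to 39519421, minus strand, GRCm38). Its level was 98.3, 103, 96.0 and 90.6 CPM in WT replicates 1 to 4 and 87.1, 96.2, 98.0 and 98.9 CPM in Cre replicates 1 to 4. The groups overlapped nearly fully, and this was the steadiest of the 10 genes, with its highest library 1.18-fold above its lowest. The log2 fold change was -0.03 (SE 0.05), and its 95% confidence interval allowed a Cre level between 0.907 and 1.06 times that of WT.

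Nr3c2 lies on chromosome 8 (76899442 to 77245012, plus strand). It had 245, 216, 214 and 213 CPM in the WT replicates and 224, 225, 181 and 209 CPM in the Cre replicates, in the same order. WT replicate 1 was the highest of all libraries and Cre replicate 3 the lowest, and the other 6 lay between them. The log2 fold change was -0.08 (SE 0.07; interval of the fold 0.853 to 1.05), and -0.03 without WT replicate 1. An exon of the noncoding gene Gm10649 on the opposite strand overlaps 247 exon bases of Nr3c2. Gm10649 had at most 135 counts in a library, where Nr3c2 had at least 4763.

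Per kilobase of merged exon, Nr3c2 stood above Nr3c1 in every library. The Nr3c2 to Nr3c1 ratio was 2.95, 2.50, 2.65 and 2.79 in the WT replicates and 3.06, 2.78, 2.19 and 2.50 in the Cre replicates, with means of 2.72 ± 0.20 and 2.63 ± 0.37 (SD, n = 4 each). The 2 highest ratios were in Cre replicate 1 and WT replicate 1, and Cre replicate 3 had the lowest. The groups overlapped (difference of mean log2 ratio -0.06, Cre minus WT; exact permutation p = 0.686, 2-sided, where the smallest possible p is 0.0286). Without Cre replicate 3 the difference was 0.03.

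Hsd11b1 encodes 11-beta-hydroxysteroid dehydrogenase type 1, which regenerates active corticosterone from its inert keto form. It had 24.7, 22.4, 25.1 and 23.3 CPM in WT and 21.1, 24.3, 21.4 and 23.0 CPM in Cre. The Cre libraries lay somewhat lower on average, 22.5 ± 1.48 CPM against 23.9 ± 1.26 CPM (SD, n = 4 each), within the spread (log2 fold change -0.09, SE 0.06; exact permutation p = 0.171, 2-sided). Hsd11b2, whose enzyme inactivates corticosterone in kidney and colon, gave 3 counts over all 8 libraries and at most 1 in any. The 5 libraries at 0 counts could still hold up to 0.111 to 0.126 CPM, the level of 3 counts, and these limits cover counting error only.

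Fkbp5 encodes a co-chaperone that lowers the hormone affinity of the glucocorticoid receptor and is itself induced by it. Its level was 65.2, 73.4, 73.4 and 85.2 CPM in WT replicates 1 to 4 and 65.3, 70.5, 71.5 and 84.9 CPM in Cre replicates 1 to 4. Replicate 1 was the lowest and replicate 4 the highest in both genotypes, and the 2 groups covered the same range. The log2 fold change was -0.02 (SE 0.08; interval of the fold 0.867 to 1.12), and -0.08 without WT replicate 1.

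Tsc22d3 encodes GILZ, a leucine zipper protein that carries anti-inflammatory actions of glucocorticoids. It varied most, at 43.6, 75.8, 70.5 and 99.7 CPM in WT and 58.0, 68.7, 93.0 and 94.2 CPM in Cre. Its highest and lowest libraries were both WT, and differed 2.29-fold. The group means were 72.4 ± 23.0 and 78.5 ± 18.0 CPM (SD, n = 4 each), a log2 fold change of 0.12 (SE 0.20) whose interval allowed 0.799 to 1.48 times the WT level. Without WT replicate 1 the log2 fold change was -0.06.

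Sgk1 encodes a serine/threonine kinase that acts on ion channels and transporters, and its window carries the palindrome printed above. It had 61.7, 99.2, 89.6 and 104 CPM in WT and 81.3, 102, 108 and 101 CPM in Cre. Replicate 1 was the lowest of each group, with WT replicate 1 far under the rest. The log2 fold change, the largest of the 10 members, was 0.15 (SE 0.13; exact permutation p = 0.543, 2-sided) and 0.01 without WT replicate 1.

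Zbtb16, which encodes the zinc finger repressor PLZF, had 65.1, 76.7, 84.3 and 101 CPM in WT and 69.8, 71.2, 79.0 and 97.9 CPM in Cre. Errfi1, which encodes a feedback inhibitor of the epidermal growth factor receptor, had 39.0, 51.0, 53.2 and 58.8 CPM in WT and 47.3, 53.2, 53.2 and 59.9 CPM in Cre. Both repeated the Fkbp5 order at its ends, with replicate 1 lowest and replicate 4 highest in each genotype. Their log2 fold changes were -0.04 (SE 0.13) and 0.08 (SE 0.10), and without WT replicate 1 they were -0.13 and -0.02.

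Pdk4 encodes a kinase that shuts down pyruvate dehydrogenase and so limits glucose oxidation. It was the least abundant member, with 191 to 366 counts a library, at 8.33, 10.7, 9.68 and 14.1 CPM in WT and 11.6, 9.03, 13.1 and 12.3 CPM in Cre. Klf9, a Krüppel-like transcription factor gene, had 198, 226, 207 and 226 CPM in WT and 214, 208, 212 and 242 CPM in Cre. The log2 fold changes were 0.11 (SE 0.15) for Pdk4 and 0.03 (SE 0.06) for Klf9, and the groups overlapped in both. They were 0.0063 and -0.0043 without WT replicate 1. In the authors' deposited table, the p-values of the 10 members, not stated there to be adjusted or not, ran from 0.232 (Hsd11b1) to 0.825 (Fkbp5).

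**Figure D1:**
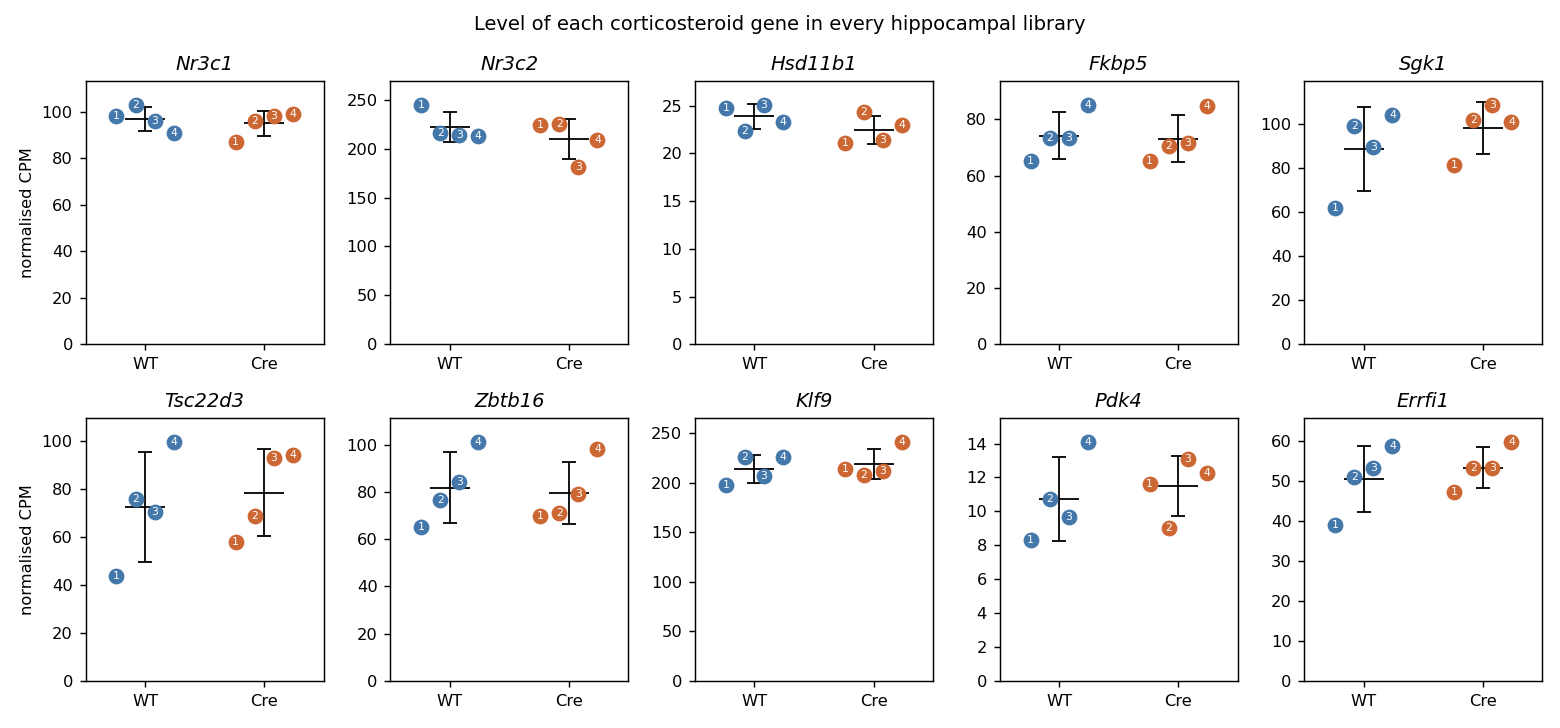
Normalised CPM of each gene (y axis from 0) in the 4 WT (blue) and 4 Cre (orange) libraries; the number in a point is the replicate, the bar the mean and the whiskers 1 SD. WT and Cre points overlap in every panel, and WT replicate 1 is the lowest point for each of the 7 target genes, at 43.6 CPM for Tsc22d3.

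**Figure D2:**
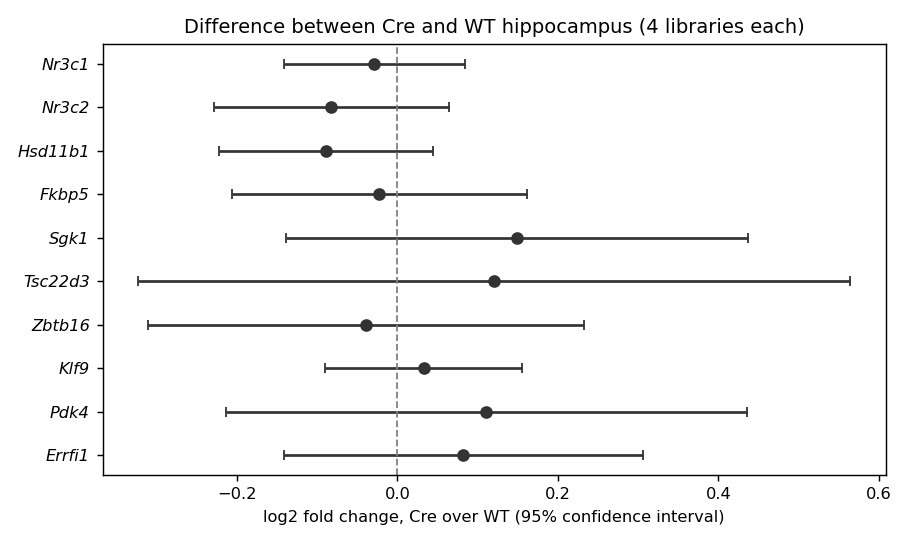
Log2 fold change of Cre over WT for each gene (points) with its 95% confidence interval (bars) from edgeR's quasi-likelihood fit. All 10 intervals include 0, and the widest, that of Tsc22d3, runs from -0.32 to 0.56.

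Compared per kilobase of merged exon, so that genes of different length can be set side by side, the members fell into an order led by Klf9. Klf9 averaged 45.0 CPM per kb over the 8 libraries, Nr3c2 33.4, Sgk1 19.0, Tsc22d3 17.4, Zbtb16 15.3, Errfi1 14.5, Nr3c1 12.5, Fkbp5 7.78, Hsd11b1 5.45 and Pdk4 3.16. Klf9 lay above Nr3c2 in every pair of libraries, and Nr3c2 above Sgk1. From Sgk1 to Nr3c1 each gene's range overlapped that of the next, so their order is not settled beyond the spread. The ranges of Nr3c1, Fkbp5, Hsd11b1 and Pdk4 did not overlap in turn. Merged exons include every annotated transcript, so these levels are lower than those of the transcripts in use.

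**Figure D3:**
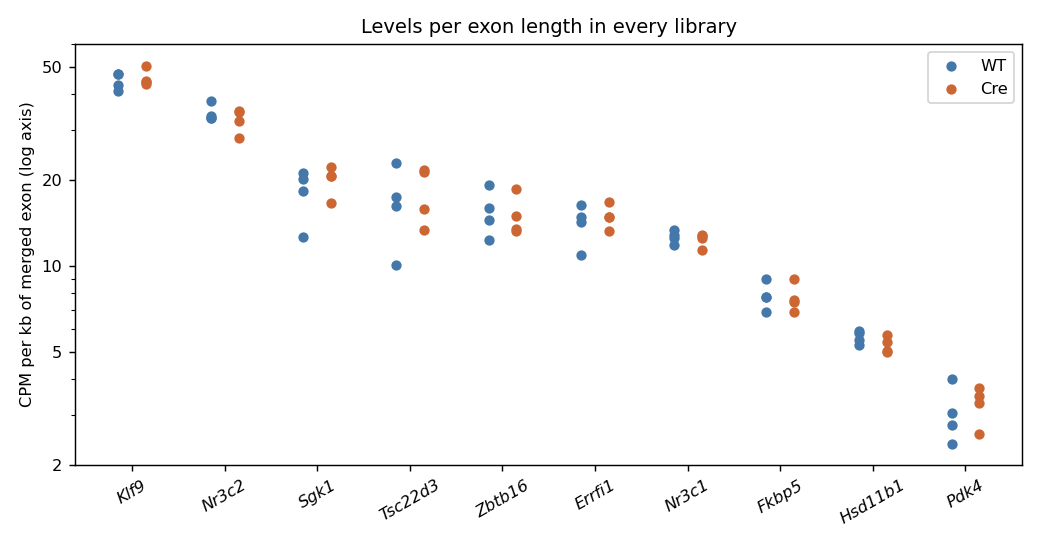
CPM per kb of merged exon (log axis) for each gene, ordered by its mean, with a point for each WT (blue) and Cre (orange) library. Klf9, at 41.0 to 50.2 CPM per kb, and Nr3c2, at 28.0 to 37.8, are separate from all others.

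Most target genes varied widely between libraries of the same genotype. The within-genotype SD of log2 CPM was 0.43 for Tsc22d3, 0.28 for Pdk4, 0.27 for Sgk1, 0.25 for Zbtb16, 0.20 for Errfi1, 0.16 for Fkbp5 and 0.10 for Klf9. The median over the 11500 genes above 5 CPM was 0.08, and only 0.383% of them were more variable than Tsc22d3. The SD was 0.08 for Nr3c1, 0.09 for Hsd11b1 and 0.12 for Nr3c2, which thus varied more than the target Klf9. Without WT replicate 1 the SD of Sgk1 was 0.16 and that of Errfi1 0.13. That of Tsc22d3 was then 0.31, wider than in 99.0% of genes.

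**Figure D4:**
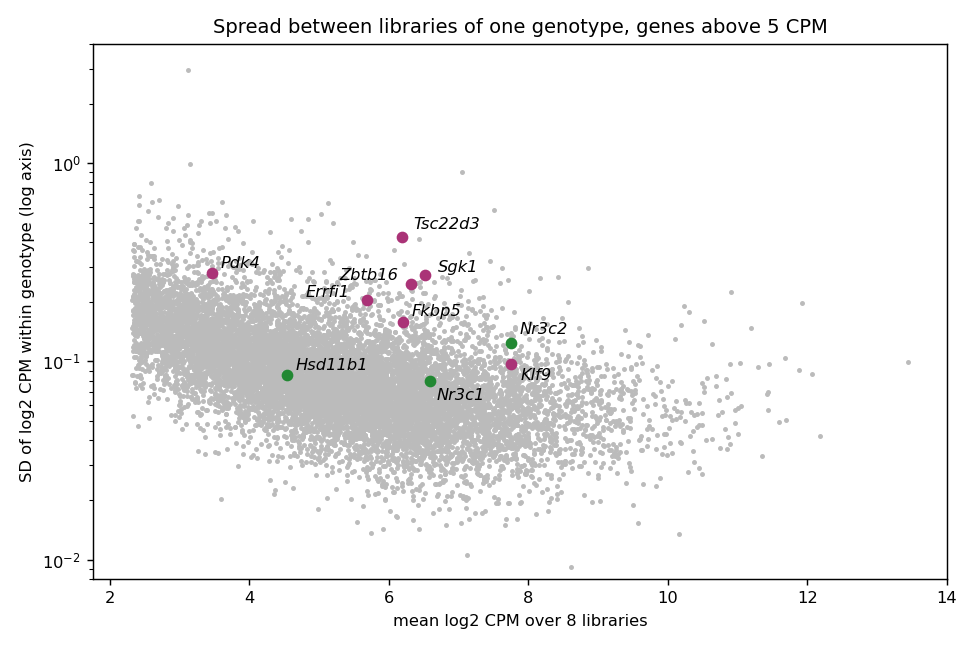
SD of log2 CPM within genotype (y, log axis) against mean log2 CPM (x) for all genes above 5 CPM (grey), with target genes in purple and the receptors and Hsd11b1 in green. Tsc22d3, at 0.43, lies above all but 0.383% of the genes, and Nr3c1 among the bulk at 0.08.

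The same libraries were low or high for target after target. WT replicate 1 was the lowest of all 8 libraries in 7 of 7 target genes, as it was in 12.9% of all genes tested, and WT replicate 4 was the highest WT library in 7 of 7, against 26.1% of all genes. Both held at once in 4.87% of all genes. Cre replicate 4 was the highest Cre library in 5 of 7 targets (24.7% of all genes), and Cre replicate 1 the lowest in 5 of 7 (27.8% of all genes). Averaged over the targets, log2 CPM lay 0.35 below the group mean in WT replicate 1 (-0.35) and 0.17 below in Cre replicate 1 (-0.17), while WT replicate 4 was 0.29 above and Cre replicate 4 was 0.19 above. These libraries were singled out after their values were seen. In the WT libraries neither receptor nor Hsd11b1 had this order: WT replicate 1 was the highest for Nr3c2, and WT replicate 4 the lowest WT library for Nr3c1. In the Cre libraries Nr3c1 did have it, lowest in Cre replicate 1 and highest in Cre replicate 4, and Hsd11b1 was also lowest in Cre replicate 1.

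**Figure D5:**
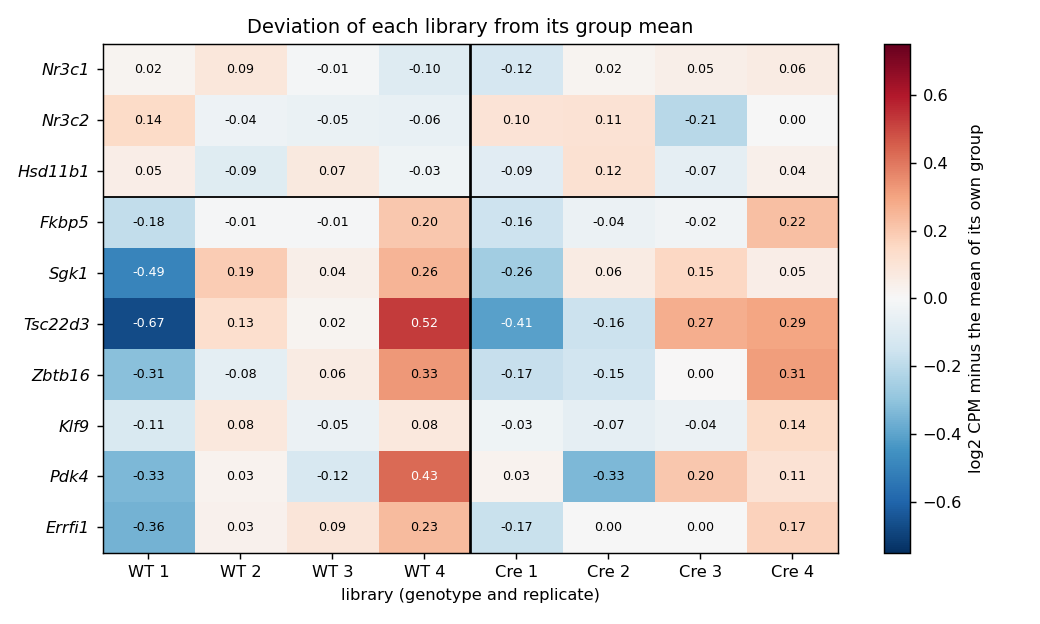
Log2 CPM minus the mean of the library's own genotype, for each gene (rows) and library (columns); red is higher and blue lower. The 7 target genes, under the horizontal line, are blue in WT replicate 1 (to -0.67 for Tsc22d3) and red in WT replicate 4 (to 0.52), unlike the 3 rows above the line.

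Relations between members were computed over the 8 libraries from these deviations, so that the genotype difference does not enter. All 21 pairs of target genes had a Pearson r above 0, from 0.59 to 0.97 with a median of 0.79, and without WT replicate 1 the r ran from 0.28 to 0.97 (median 0.65). Without the 2 libraries farthest from the median of the first gene of a pair, the r had a median of 0.64 and a minimum of 0.055, so some pairs rest on those libraries. For Fkbp5 and Zbtb16, r was 0.97 (exact permutation p = 0.00347, n = 8) and Spearman's rho 0.90 (exact permutation p = 0.00868), and r was 0.86 without the 2 libraries farthest from the median of Fkbp5. For Sgk1 and Tsc22d3, r was 0.92 (exact permutation p = 0.00694, n = 8), rho 0.79 (exact permutation p = 0.0382) and r 0.67 without the 2 farthest libraries. Among all 45 pairs of members, 13 had a raw exact permutation p under 0.05 and 0 passed after Benjamini-Hochberg adjustment (smallest adjusted p = 0.100, for both of these pairs; adjusted p for rho 0.125 and 0.156). With 576 arrangements within groups, the smallest p is 0.00174.

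Nr3c2 had an r below 0 with all 7 targets, from -0.32 with Klf9 to -0.78 with Tsc22d3, and 0 of these pairs passed adjustment. The 7 targets varied together, so these 7 values are not independent. Without WT replicate 1 the r of Nr3c2 was -0.22 with Fkbp5, -0.59 with Sgk1 and -0.67 with Tsc22d3. With all 8 libraries they were -0.45, -0.72 and -0.78. For Nr3c2 and Tsc22d3 over all 8, r was -0.78 (exact permutation p = 0.0295, n = 8; adjusted p = 0.128), rho -0.76 (exact permutation p = 0.0590; adjusted p = 0.198), and r was -0.80 without the 2 farthest libraries. Nr3c1 had an r of 0.12 with Tsc22d3 and 0.08 with Fkbp5 (exact permutation p = 0.767 and 0.863, n = 8; rho 0.24 and 0.33, exact permutation p = 0.611 and 0.474; r without the 2 farthest libraries 0.44 and 0.37).

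Many other genes varied over the libraries much as these targets did. All 11494 other genes with a mean of at least 5 CPM were ranked by r over the same 8 deviations. Of these, 581 had an r of at least 0.8 with Tsc22d3, 592 with Fkbp5 and 389 with Sgk1. These counts were 960, 763 and 681 without WT replicate 1. With 7 libraries an r of at least 0.8 is easier to reach, so the rise cannot be read as closer likeness. Apart from an entry with only a clone name, the closest to Tsc22d3 were Hif3a (r 0.99), Lrrc58 (0.98), Cdc37l1 (0.98) and E2f6 (0.98). Hif3a, a hypoxia-inducible factor gene, had 2.56, 7.27, 5.56 and 10.7 CPM in WT and 3.22, 5.11, 9.83 and 8.81 CPM in Cre. As in Tsc22d3, replicate 1 was the lowest of each genotype and WT replicate 4 the highest of all. Its r was 0.98 and its rank 10 without WT replicate 1, and Lrrc58, Cdc37l1 and E2f6 ranked 61, 49 and 12. Of the other targets, Errfi1 was 66th for Tsc22d3, Sgk1 86th, Zbtb16 191st, Fkbp5 233rd, Pdk4 555th and Klf9 969th. Without WT replicate 1 the ranks of these targets ran from 652 (Errfi1) to 2540 (Klf9).

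The closest genes to Fkbp5 were Homer1, Arhgef3, Wdr82, Stox2 and Rhbdl3, all with an r of 0.98 over the 8 libraries. Homer1, a postsynaptic scaffold gene with an activity-induced short form, had 119 CPM in WT replicate 1 and 190.5 CPM in WT replicate 4. These 5 ranked 24, 31, 30, 11 and 32 without WT replicate 1, so 0 of them stayed among the closest 5. Of the other targets, Zbtb16 was 12th, Errfi1 149th, Tsc22d3 253rd, Klf9 380th, Sgk1 1103rd and Pdk4 1378th of 11494 genes. Without WT replicate 1, Zbtb16 was 57th, Errfi1 37th, Tsc22d3 517th, Klf9 915th, Sgk1 2289th and Pdk4 2613th. The closest to Sgk1 were Dedd2 (r 0.98), Arrdc2 (0.97), Tmem127 (0.97), Phospho2 (0.97) and Srpk2 (0.97). Arrdc2, an arrestin-domain gene on the list of other hormone-responsive genes, had 9.11 CPM in WT replicate 1 and 13.1 to 16.8 CPM in the other 7 libraries. Without WT replicate 1 its r with Sgk1 was 0.89, and the 5 genes ranked 54, 233, 169, 231 and 208. For Sgk1, Tsc22d3 ranked 37th, Errfi1 88th, Fkbp5 790th, Zbtb16 916th, Pdk4 1388th and Klf9 1539th. Without WT replicate 1 the ranks of these targets ran from 538 (Tsc22d3) to 4259 (Klf9).

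Summed markers of neurons and of other cell types also differed between the libraries that were low and high for the targets. WT replicate 1 and Cre replicate 1 were each the highest of their genotype for microglia and for choroid plexus markers. Summed microglia markers were 319 CPM in WT replicate 1 and 434 CPM in Cre replicate 1, and 313 and 326 CPM in the replicates numbered 4. Oligodendrocyte markers, of a cell type that expresses Sgk1, summed to 4021 CPM in WT replicate 1 and 5184 CPM in Cre replicate 1, the lowest and the highest of all libraries. Choroid plexus markers were at 1004 CPM in WT replicate 1 and 37.4 CPM in Cre replicate 1. CA1 markers were at 696 and 673 CPM in WT and Cre replicate 1, and 772 and 761 CPM in the replicates numbered 4. Interneuron markers were likewise at 1050 and 1012 CPM, and 1134 and 1043 CPM. Dentate granule markers went opposite ways by genotype, at 341 and 319 CPM, and 301 and 377 CPM. CA2 and CA3 markers were lower in the replicates numbered 4, at 279 and 260 CPM, and 277 and 244 CPM. The part of these cell types in the order of the libraries was not tested.

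Of 25 other corticosteroid-responsive genes, 24 were tested and 0 passed (edgeR over all genes). At an unadjusted p under 0.05 there were 4, beside 3.5% of all genes. The groups failed to overlap in 0 of the 24, beside 2.31% of all genes. The log2 fold changes of the 24 genes had a median of 0.12, with 19 of 24 above 0 beside 50.2% of all genes. The median was 0.02 without WT replicate 1, with 18 of 24 above 0, and leaving out Cre replicate 3 or Cre replicate 4 gave a median of 0.07 with 17 above 0. Smallest p-values belonged to the metal-binding metallothioneins Mt1 (WT 94.9 ± 7.14 and Cre 112 ± 8.37 CPM; log2 fold change 0.24, SE 0.06) and Mt2 (63.1 ± 8.41 and 80.0 ± 8.79 CPM; 0.34, SE 0.09), and to Arl4d, a small GTPase gene (10.7 ± 2.56 and 14.8 ± 1.55 CPM; 0.47, SE 0.14). Each had an adjusted p = 0.999 by edgeR. Arl4d had 7.48 CPM in WT replicate 1 and 10.5 to 13.7 CPM in the other WT libraries. Its fold change without WT replicate 1 is not given here. Mt1 and Mt2 were highest in Cre replicate 1, at 118 and 92.1 CPM, which was also highest for astrocyte markers (6014 CPM). The most abundant gene was Glul, glutamine synthetase of astrocytes, at 1450 ± 108 and 1499 ± 202 CPM (log2 fold change 0.05, SE 0.08). WT replicate 1 was the lowest library in 12 of these 24 genes (12.9% of all genes). In 8 of them, Cdkn1a, Arrdc2, Gjb6, Mfsd2a, Fam107a, Mertk, Txnip and Rhob, WT replicate 4 was also the highest WT library (4.87% of all genes). Per1, a clock gene with a response element, had 84.7, 121, 123 and 122 CPM in WT and 99.8, 113, 135 and 142 CPM in Cre.

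Genes for the proteins that hold the receptors ready had small differences. Of 14 chaperone and co-chaperone genes, 0 passed (edgeR over all genes), 0 had an unadjusted p under 0.05, and log2 fold changes ran from -0.06 to 0.07. Hsp90ab1, the constitutive Hsp90 that folds the hormone-binding domain, averaged 1722 ± 46.0 and 1699.7 ± 40.7 CPM in the WT and Cre groups. Bag1 (90.9 ± 3.97 and 95.1 ± 2.66 CPM), Ppp5c (117 ± 4.19 and 113 ± 3.95) and Cdc37 (133 ± 1.98 and 137 ± 4.18), all partners of Hsp70 or Hsp90, had the smallest p. WT replicate 1 was the lowest library in 0 of the 14 (12.9% of all genes). By contrast, WT replicate 4 was the highest WT library in 11 (26.1% of all genes). Cre replicate 1 was the lowest Cre library in 12 (27.8% of all genes).

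Of 14 coregulator genes, 0 passed and 0 had an unadjusted p under 0.05 by edgeR, with log2 fold changes from -0.06 to 0.04. The coactivator genes Ncoa1 (198 ± 7.31 and 191 ± 7.83 CPM), Ncoa2 (118 ± 5.82 and 114 ± 2.82) and Ppargc1a (51.8 ± 2.56 and 49.6 ± 3.52) had the smallest p. The groups did not overlap in 1 of the 14, against 2.31% of all genes.

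Of 9 genes for metabolism and transport of corticosteroids, 6 were tested and 0 passed, with 0 at an unadjusted p under 0.05 by edgeR. Abcb1a, the efflux pump of brain endothelium, had 22.4 ± 2.00 CPM in WT and 23.7 ± 1.76 in Cre, and the steroid enzyme genes Akr1c14 and Cyp11a1 were low, at 1.21 ± 0.42 and 2.23 ± 0.61 CPM in WT and 0.99 ± 0.35 and 2.51 ± 0.52 in Cre. Of 10 genes for corticotropin-releasing hormone, vasopressin and other steroid receptors, 8 were tested and 0 passed. Pgr, the progesterone receptor gene, was the only one of the 8 with an unadjusted p under 0.05 by edgeR, beside 3.5% of all genes (22.4 ± 0.47 and 20.1 ± 2.09 CPM; log2 fold change -0.15, SE 0.07; adjusted p = 0.999). Crhr2, a receptor gene of the corticotropin-releasing hormone family, stood at 1.92 ± 0.68 and 1.33 ± 0.26 CPM.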

How the data were processed

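Per the labels' protocols, poly(A) RNA from hippocampus was made into directional libraries and sequenced as paired 150-base reads in a single lane. The authors' deposited counts are whole numbers per gene, not normalized; GRCm38, STAR 2.6.1d, edgeR 3.11 and featureCounts are named in the submitters' processing notes. Strand setting and annotation release were not given in the sources used here. Of the authors' deposited table, the p-value and the log2 fold change were read; whether that p-value is adjusted is not given. Members and lists were chosen with earlier results of these data known.

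Counts were filtered (filterByExpr, minimum count 10, total 15), TMM-scaled and tested with edgeR 4.0.16 (R 4.3.3; limma 3.58.1 and DESeq2 1.42.0 as alternatives), 2-sided, adjusted over 15859 genes. In simulated data the fit called 44% of changes of log2 0.3, 58% of log2 0.6, 84% of log2 1 and 100% of log2 2. The 200 changed genes were drawn at random from all genes tested, each with its own spread. Most target genes varied more than the median gene, so these shares cannot be taken as theirs. The smallest simulated size, log2 0.3, was above every estimate of the members. Changes of the size estimated for the members could therefore be missed. Correlations used log2 CPM (prior count 2). Positions and exon lengths are from GENCODE M21 (GRCm38). Besides the members, the text names for each list the 3 genes with the smallest p and the most abundant, and the 5 genes closest to Fkbp5, Tsc22d3 and Sgk1; Hsd11b2, Gm10649, Per1 and the 8 genes named for their library order were added after their values were seen. Some genes that this rule would name are not reported here.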

Additional observations from a re-analysis of the deposited data

Results flagged for a closer look

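In 5 of 56 groups of 4 libraries examined, a single library lay far from the other 3; chance flags about 1 in 20 such groups. Nr3c2 was at 245 CPM in WT replicate 1 and at 213 to 216 CPM in the other WT libraries. Ncoa2 was low in WT replicate 1 (109 CPM, others 119.5 to 121) and high in Cre replicate 4 (118 CPM, others 112 to 113). Crhr2, a receptor gene of the corticotropin-releasing hormone family, was high in WT replicate 1, which also held choroid plexus RNA (2.93 CPM, others 1.44 to 1.67), and low in Cre replicate 2 (0.946 CPM, others at least 1.42).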

How the results depend on the processing

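Under 13 alternatives (DESeq2, limma voom, DESeq2 size factors in edgeR, no filter on low counts, a replicate block, and each of 8 libraries left out) 0 of 10 members passed, with a smallest adjusted p = 0.891. Of 130 member values, 119 kept their direction and 11 changed sign, all 11 on leaving out a library, where log2 fold changes ran from -0.060 to 0.011 for Nr3c1, -0.10 to 0.049 for Fkbp5, -0.060 to 0.31 for Tsc22d3, -0.15 to 0.079 for Zbtb16, -0.016 to 0.060 for Klf9 and -0.024 to 0.16 for Errfi1. Members above 0 ranged from 2 (without WT replicate 1) to 8 (without Cre replicate 1), and the Nr3c2 to Nr3c1 difference from -0.13 to 0.028. The 1 gene called lower became 2 with DESeq2 and 0 to 1 with a library left out; the 4 called higher became 4 to 5 there, 5 with DESeq2 and 6 with no filter. The labels do not say whether replicate numbers pair the libraries, and the values did not settle it. Over 11500 genes, same-numbered libraries' deviations correlated at 0.27, -0.16, 0.005 and 0.20 for replicates 1 to 4. Differently numbered libraries of the 2 genotypes correlated at -0.31 to 0.18. The replicate block gave 5 genes higher, 1 lower and 0 members. For the receptor ratio it gave p = 0.625 (exact sign-flip permutation within replicate numbers, 2-sided). Pairs of members past adjustment were 0 under the 9 alternatives run for them, but with a library left out the smallest possible exact p is 0.00694, so this says little about stability. Pdk4, with 191 to 366 counts a library, is the member most limited by depth.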
